A study of Mus musculus with 37 samples.

Results

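The subunits of the AMPA and NMDA receptors for glutamate were followed across 4 genotypes of mouse cortex at 9 wk of age. Every probe set that the platform annotation gives to Gria1, Gria2, Gria3, Gria4, Grin1, Grin2a, Grin2b, Grin2c, Grin2d or Grin3a, and to no other gene, was taken. This gave 21 of the 45037 probe sets on the array and 9 of the 10 genes. Grin1, which encodes the subunit common to all NMDA receptors, was not analysed here. AMPA subunits had 10 of the probe sets and NMDA subunits 11.

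AMPA receptors carry the fast component of excitatory transmission and are assembled from the GluA proteins that the Gria genes encode. GluA2, the product of Gria2, keeps calcium out of the channel after its transcript has been edited, so receptors without it admit calcium. NMDA receptors open only when glutamate and a co-agonist, glycine or D-serine, are bound and the membrane is depolarised, and their GluN2 subunits, encoded by the Grin2 genes, set how long the channel stays open. In cortex, Grin2b is known as the early GluN2 subunit and Grin2a as the one that gains ground with maturation, while Grin2d is best known from interneurons and Grin2c from cerebellar granule cells and forebrain astrocytes. Grin3a encodes a subunit that lowers the calcium permeability of the receptor.

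The cortex of 37 mice was hybridised to Affymetrix arrays, 1 array per mouse, and the authors deposited 1 log2 level per probe set and array. All mice were labelled as CBA X C57Bl/6 and as 9 wk old. The 9 WT mice carried neither mutation. The 9 Hdac4HET mice carried 1 null allele of Hdac4 in every cell, from a knock-out made on a different strain background, so that DNA of that strain can remain around the gene. The 9 R6/2 mice carried the transgene of exon 1 of mutant human huntingtin and 2 intact Hdac4 alleles, and the 10 Dble::R6/2 mice carried the transgene and 1 null allele. Both mutations were present throughout the body and throughout life. The study asked whether Hdac4 knock-down alters the transcriptional changes of R6/2 cortex.

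The promoters of 3 subunit genes are shown because their probe sets behaved differently in R6/2 cortex. The brightest probe set of Gria2 did not pass the test there, while those of Gria4 and Grin2c fell. The sequences run from 250 bases before to 50 bases after the RefSeq start on build GRCm38.p6, and all 3 genes lie on the minus strand. Gria2 is at chr3:80802786-80803085, Gria4 at chr9:4796185-4796484 and Grin2c at chr11:115267194-115267493. Capitals mark matches to 3 motifs searched on both strands, an RE1-like sequence (AGCACC, 2 free bases, GGACAG), an NRF1-like sequence (GCGC, 2 free bases, GCGC) and a GC box (GGGCGG).
Gria2: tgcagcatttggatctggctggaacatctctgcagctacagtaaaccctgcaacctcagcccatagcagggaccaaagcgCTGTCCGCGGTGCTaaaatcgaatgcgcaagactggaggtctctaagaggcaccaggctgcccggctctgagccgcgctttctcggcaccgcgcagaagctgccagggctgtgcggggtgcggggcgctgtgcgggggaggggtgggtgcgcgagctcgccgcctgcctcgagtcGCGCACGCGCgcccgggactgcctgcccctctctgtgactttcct
Gria4: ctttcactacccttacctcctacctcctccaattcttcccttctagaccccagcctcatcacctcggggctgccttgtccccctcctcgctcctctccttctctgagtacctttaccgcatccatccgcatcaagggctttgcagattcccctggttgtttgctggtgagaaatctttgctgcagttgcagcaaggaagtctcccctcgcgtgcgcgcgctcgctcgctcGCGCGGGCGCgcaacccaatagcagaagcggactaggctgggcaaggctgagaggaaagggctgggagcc
Grin2c: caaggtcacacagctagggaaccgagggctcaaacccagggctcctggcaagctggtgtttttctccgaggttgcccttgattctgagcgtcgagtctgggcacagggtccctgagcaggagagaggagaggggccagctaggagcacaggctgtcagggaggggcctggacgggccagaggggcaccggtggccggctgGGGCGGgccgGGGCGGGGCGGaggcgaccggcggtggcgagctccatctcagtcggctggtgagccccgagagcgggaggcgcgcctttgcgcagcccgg
The Gria2 promoter held an RE1-like match on the strand opposite to the gene, from base -170 to base -157 relative to the start, and an NRF1-like match from base 6 to base 15. An RE1 element, the binding sequence of the silencer REST, was described in the rat Gria2 promoter. The Gria4 promoter held an NRF1-like match from base -20 to base -11. The Grin2c promoter held 3 GC boxes, starting at bases -50, -40 and -35, of which the last overlaps its neighbour by 1 base. Among 32851 mouse promoters of this length, 0.0517% held the RE1-like sequence, 6.23% the NRF1-like sequence and 35.7% a GC box. Promoter entries were found for 5 of the 10 genes. Those of Grin1, with a GC box, and of Grin2d, with no match to any of the 3 motifs, are not shown. The brightest probe set of Grin2d also fell in R6/2 cortex. A match is a run of letters and was not tested for binding or for a link with the changes.

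Hdac4 itself followed the genotype labels. Its log2 level was between 8.28 and 8.64 in WT and between 8.31 and 8.55 in R6/2 mice, against 7.80 to 8.02 in Hdac4HET and 7.70 to 7.98 in Dble::R6/2 mice. The medians of the arrays ranged from 6.16 to 6.21, and arrays of the same genotype had correlations of 0.993 to 0.998. Olfactory bulb markers were raised on 9 arrays, of which 7 were Hdac4HET, 1 was R6/2 and 1 was Dble::R6/2. Raised means a mean marker level above that of every WT array, the highest of which was 6.15. Hdac4HET replicate 3 (6.16) and R6/2 replicate 6 (6.19) were barely above it, and the others ranged from 6.70 to 8.29. On 6 arrays the sex-linked genes went against the labelled sex. The groups of reduced Hdac4 hold most of these arrays. Without the 6 arrays 2 calls were lost in R6/2 against WT, those of Gria4 1440891_at (0.13, adjusted p = 0.119) and Grin3a 1458378_at (-0.17, adjusted p = 0.078). Subunit changes without the 9 arrays are given with the comparison that they touch. The general neuronal markers had 6 of 8 genes lower in R6/2 than in WT cortex (median log2 change -0.12), the inhibitory neuron markers 5 of 6 (-0.36) and the astrocyte markers 5 of 6 (-0.28). Striatal markers were lower for 4 of 4 (-0.69). The excitatory neuron markers had 1 of 4 lower and 1 higher, with a median of -0.01. Over the array 17.6% of probe sets were called lower and 21.3% higher in this comparison. The mean log2 level of the neuronal markers was 12.37 to 12.52 in WT and 12.25 to 12.39 in R6/2 mice, that of the inhibitory markers 10.98 to 11.18 and 10.41 to 10.66, and that of the astrocyte markers 10.45 to 10.62 and 10.19 to 10.35. In pieces of cortex, fewer cells of a type cannot be told apart from less RNA per cell, and the part of these shifts in the subunit values was not tested.

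The subunits differed in how brightly they were measured. Genes that cortex is not expected to transcribe, 13 in number, had mean log2 levels of 3.02 to 6.22, and 6 of the subunit probe sets lay at or below the highest of these. They were the only probe set of Grin2a (1421616_at), 1 of the 3 of Gria4 (1421351_at), 2 of the 4 of Grin2b (1431700_at and 1422223_at), 1 of the 2 of Grin2d (1421393_at) and 1 of the 3 of Grin3a (1458378_at). Of the 13 genes, 5 were themselves called lower in R6/2 cortex and 0 higher, so changes on these 6 dim probe sets are given with that limit. The other 15 probe sets lay above all 13 genes, from Grin2d 1442328_at at a mean of 6.98 to Gria2 1421970_a_at at 12.52. The levels of different probe sets depend on their probes and are not compared with each other.

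In R6/2 cortex most subunit genes were lower than in WT, by modest amounts. By the brightest probe set of each gene, Gria1, Gria3, Gria4, Grin2b, Grin2c, Grin2d and the dim Grin2a fell, by 1.11- to 1.29-fold, while Gria2 and Grin3a did not pass the test. Over all 21 probe sets, 14 fell, 1 rose and 6 missed an adjusted p of 0.05. Of the 15 that lay above the genes not expected in cortex, 10 fell and 1 rose. Across the array 38.8% of probe sets passed in this comparison, 17.6% lower and 21.3% higher. The median log2 change was -0.27 over the 9 brightest probe sets and -0.20 over all 21, against -0.02 over all probe sets. Of the 21, 2 also exceeded a change of 1.3-fold, Gria3 1420563_at and the dim Gria4 1421351_at, where 6.08% of all probe sets did (3.03% lower). The WT and R6/2 mice did not overlap on 3 probe sets, the brightest of Gria3, Gria4 and Grin2c, all lower in R6/2. Of all probe sets 2.73% were lower without overlap.

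**Figure D1:**
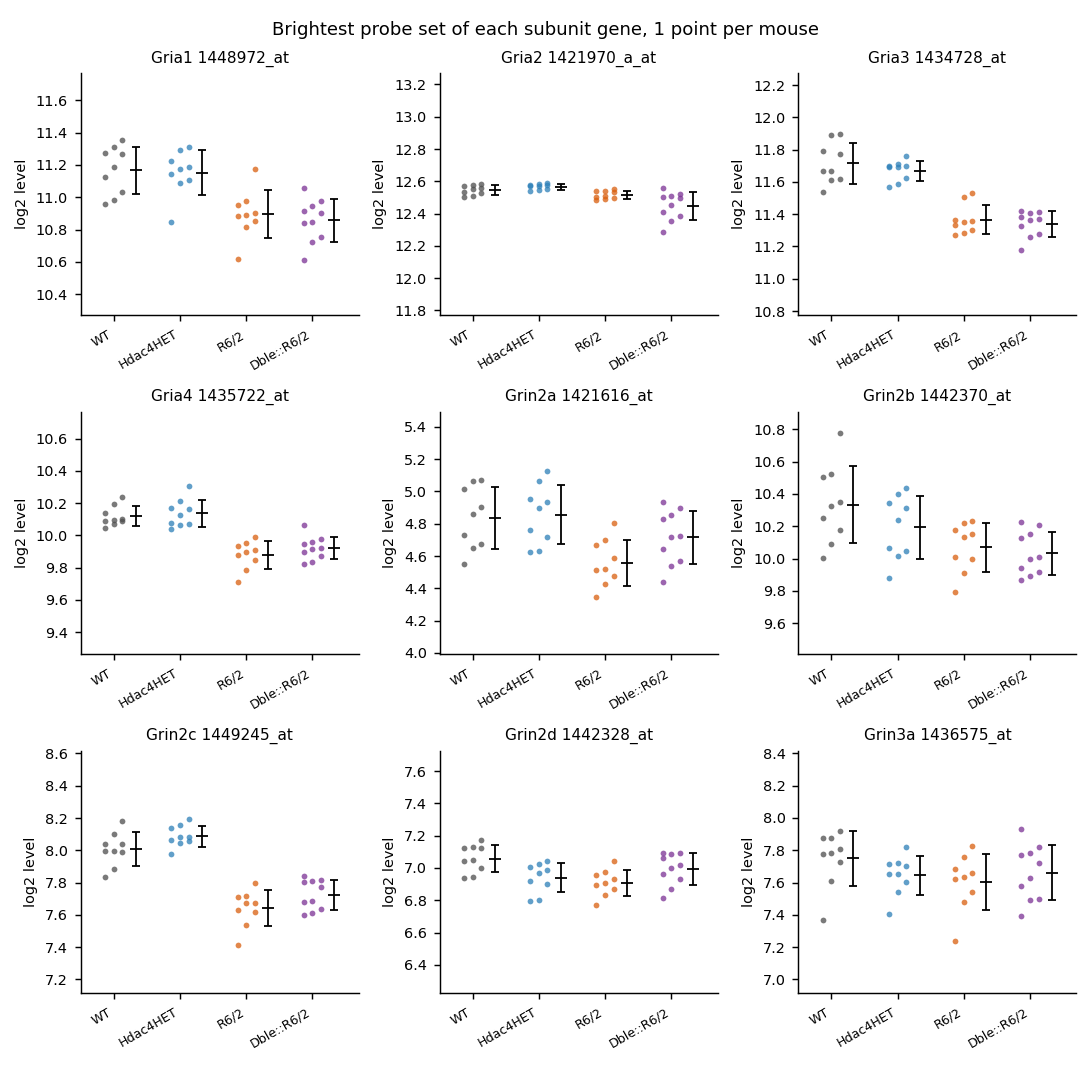
Log2 level of the brightest probe set of each subunit gene (vertical axes, each spanning 1.5 log2 units) in the 4 genotypes (horizontal axes). Points are mice, and bars are the mean ± SD to the right of them. Gria3, Gria4 and Grin2c separate R6/2 from WT mice, Gria2 shows the smallest change between R6/2 and WT, and the Grin2a values are at the level of genes not expected in cortex.

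Gria3, on the X chromosome, was the AMPA subunit that fell furthest. Its brightest probe set (1434728_at) had log2 levels of 11.54, 11.67 and 11.90 in WT mice (lowest, median and highest of 9) and 11.27, 11.35 and 11.53 in R6/2 mice, so every R6/2 mouse was below every WT mouse. The means were 11.72 ± 0.13 (SD, n = 9) and 11.37 ± 0.09 (n = 9), a change of -0.35 ± 0.04 (SE, adjusted p = 1.21e-08), or 78.4% of the WT level. It ranged from -0.36 to -0.34 over 10 alternative fits, among them 1 with a sex term, and kept its call in all of them. On the second probe set (1420563_at) the change was -0.51 ± 0.10 (adjusted p = 4.89e-05), 1.42-fold lower. There the WT mice had a median of 11.34 and the R6/2 mice of 10.71, and the groups overlapped because WT replicate 8, at 10.66, was far below the other WT mice.

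Gria1, a main partner of Gria2 in cortical pyramidal cells, fell on 1 of its 2 probe sets. On 1448972_at the WT mice spanned 10.96 to 11.36 with a median of 11.19, and the R6/2 mice 10.62 to 11.17 with a median of 10.89. The change was -0.27 ± 0.06 (adjusted p = 0.000657), 1.21-fold lower. On 1435239_at it was -0.08 ± 0.06 (adjusted p = 0.321), with medians of 10.84 and 10.72 and broad overlap.

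Gria2 had 3 probe sets above the level of genes not expected in cortex, and 1 of them fell. The brightest, 1421970_a_at, was between 12.50 and 12.58 in WT (median 12.55) and between 12.49 and 12.55 in R6/2 mice (median 12.51). Its change of -0.03 ± 0.02 did not pass (adjusted p = 0.361), with a 95% confidence interval from -0.08 to 0.02. The next, 1434146_at, changed by -0.01 ± 0.04 (adjusted p = 0.842), with an interval from -0.10 to 0.08. The third, 1453098_at, had a median of 10.53 in WT and 10.33 in R6/2 mice and fell by 0.25 ± 0.06 (adjusted p = 0.00176).

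Gria4, known from interneurons and thalamic relay cells, moved in both directions. Its brightest probe set, 1435722_at, had levels of 10.05, 10.09 and 10.24 (lowest, median, highest) in WT and 9.71, 9.90 and 9.99 in R6/2 mice, with no overlap. The fall was 0.24 ± 0.04 (adjusted p = 1.32e-06), 1.18-fold. The dim probe set 1421351_at fell by 0.41 ± 0.08 (adjusted p = 0.000109), from a median of 6.41 to 6.00. By contrast 1440891_at was higher, with a median of 8.54 in WT and 8.70 in R6/2 mice and a change of 0.14 ± 0.06 (adjusted p = 0.0468). The call was lost in 10 of the 18 fits that leave out 1 mouse, down to 0.10 (adjusted p = 0.141) without R6/2 replicate 8, the highest at 9.10, and after quantile normalization (0.09, adjusted p = 0.243).

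**Figure D2:**
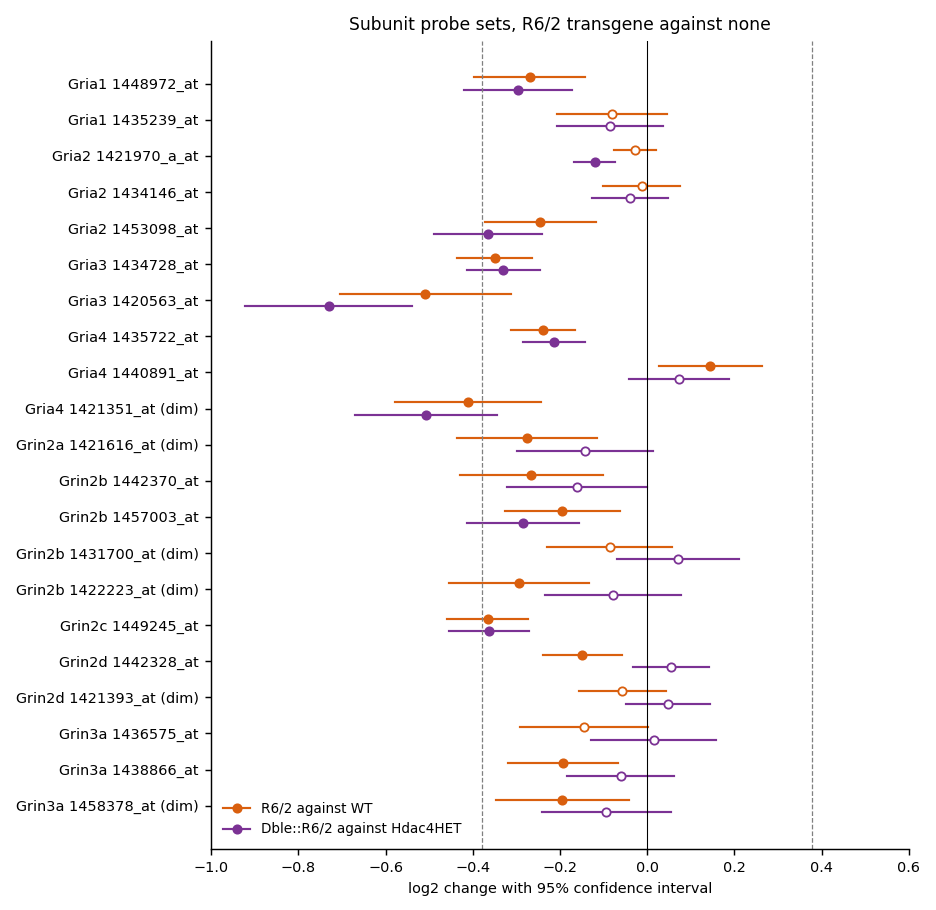
Log2 change of the 21 subunit probe sets with 95% confidence intervals (horizontal axis) for R6/2 against WT and Dble::R6/2 against Hdac4HET. Filled points passed an adjusted p of 0.05, dashed lines mark a change of 1.3-fold, and "dim" marks the 6 probe sets at the level of genes not expected in cortex. In R6/2 against WT 20 of the 21 points lie below 0.

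Among the NMDA subunits, Grin2c fell furthest. Its only probe set (1449245_at) had levels of 7.83, 8.0 and 8.18 in WT and 7.41, 7.67 and 7.80 in R6/2 mice, again without overlap. The means were 8.01 ± 0.11 (SD, n = 9) and 7.64 ± 0.11 (n = 9), a change of -0.37 ± 0.05 (SE, adjusted p = 3.23e-08), or 77.6% of the WT level. The astrocyte markers had a median change of -0.28 in the same comparison, and their part in the fall of Grin2c was not tested. At 1.29-fold it stood just short of 1.3-fold, and it passed that threshold after quantile normalization (-0.41) and without WT replicate 1 (-0.38), WT replicate 6 (-0.39) or R6/2 replicate 1 (-0.39).

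Grin2b fell on both of its bright probe sets. On 1442370_at the WT mice ranged from 10.00 to 10.78 (median 10.32) and the R6/2 mice from 9.79 to 10.23 (median 10.13), with overlap, and the change was -0.27 ± 0.08 (adjusted p = 0.00857). On 1457003_at it was -0.19 ± 0.07 (adjusted p = 0.016), and without WT replicate 4, which stood highest at 10.57, it was -0.14 and no longer passed (adjusted p = 0.0514). Of the dim pair, 1422223_at fell by 0.29 ± 0.08 (adjusted p = 0.00282) and 1431700_at changed by -0.09 ± 0.07 (adjusted p = 0.358). Grin2a could be followed only on its dim probe set, where the median went from 4.86 in WT to 4.52 in R6/2 mice, a fall of 0.28 ± 0.08 (adjusted p = 0.00506).

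Grin2d and Grin3a changed less. Grin2d 1442328_at had a median of 7.05 in WT and 6.91 in R6/2 mice and fell by 0.15 ± 0.04 (adjusted p = 0.0073), and its dim probe set changed by -0.06 ± 0.05 (adjusted p = 0.378). Grin3a was called lower on 2 of its 3 probe sets, 1438866_at (-0.19 ± 0.06, adjusted p = 0.0127) and the dim 1458378_at (-0.20 ± 0.08, adjusted p = 0.037). Its brightest, 1436575_at, ranged from 7.37 to 7.92 in WT and from 7.24 to 7.83 in R6/2 mice, a change of -0.15 ± 0.07 that did not pass (adjusted p = 0.112). Without WT replicate 6 that change was -0.19 and passed (adjusted p = 0.0253), and the call of 1458378_at was lost in 9 of the 18 fits without 1 mouse.

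The next comparison shares no mouse with the one above, but 1 fit gave both the same estimate of the spread. It took the same transgene on the background of reduced Hdac4, in Dble::R6/2 against Hdac4HET mice. Here 9 of the 21 probe sets were lower, 0 higher and 12 did not pass, and across the array 36.8% passed, 15.6% lower and 21.2% higher. Gria1, Gria2, Gria3, Gria4 and Grin2c fell by their brightest probe sets, and Grin2a, Grin2b, Grin2d and Grin3a did not pass. The median change of the 9 brightest probe sets was -0.16, against 0.02 over all probe sets. Both Gria3 1420563_at and Gria4 1421351_at again exceeded 1.3-fold, 2 of 21 where 7.1% of all probe sets did (5.07% lower). On 4 probe sets the groups did not overlap, both of Gria3, Gria2 1453098_at and Grin2c 1449245_at, where 3.55% of all probe sets were lower without overlap.

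Gria3 fell on both probe sets. On 1434728_at the Hdac4HET mice had levels of 11.57, 11.69 and 11.76 and the Dble::R6/2 mice 11.17, 11.37 and 11.42 (lowest, median, highest), a change of -0.33 ± 0.04 (adjusted p = 2.5e-08). On 1420563_at the medians were 11.32 and 10.59 and the change was -0.73 ± 0.09 (adjusted p = 5.56e-08), 1.66-fold lower and the largest of any subunit probe set in either comparison. No Dble::R6/2 mouse reached the lowest Hdac4HET mouse, replicate 1 at 10.93, although the highest, at 10.93 as well, came close to it.

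Each of the other AMPA subunits was lower on at least 1 probe set. Gria1 1448972_at fell by 0.30 ± 0.06 (adjusted p = 0.000152), from a median of 11.18 to 10.87, and Gria4 1435722_at by 0.21 ± 0.04 (adjusted p = 5.74e-06), from 10.12 to 9.92. Gria2 1421970_a_at had a median of 12.57 in Hdac4HET and 12.47 in Dble::R6/2 mice and fell by 0.12 ± 0.02 (adjusted p = 5.95e-05), with a spread of 0.02 (SD, n = 9) and 0.09 (SD, n = 10) in the respective groups. Gria2 1453098_at fell by 0.37 ± 0.06 (adjusted p = 6.7e-06), from a median of 10.55 to 10.17. Gria4 1421351_at fell by 0.51 ± 0.08 (adjusted p = 2.76e-06), while Gria4 1440891_at changed by 0.07 ± 0.06 (adjusted p = 0.348). Gria1 1435239_at (-0.09 ± 0.06, adjusted p = 0.296) and Gria2 1434146_at (-0.04 ± 0.04, adjusted p = 0.529) did not pass.

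Of the NMDA subunits, Grin2c and 1 probe set of Grin2b fell. Grin2c ranged from 7.97 to 8.19 in Hdac4HET and from 7.6 to 7.84 in Dble::R6/2 mice, a change of -0.36 ± 0.04 (adjusted p = 2.19e-08). Grin2b 1457003_at fell by 0.28 ± 0.06 (adjusted p = 0.000404), from a median of 10.01 to 9.82, and the brighter 1442370_at changed by -0.16 ± 0.08 (adjusted p = 0.116). Grin2d 1442328_at changed by 0.05 ± 0.04 (adjusted p = 0.361) and Grin3a 1436575_at by 0.01 ± 0.07 (adjusted p = 0.906).

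Most Hdac4HET arrays carried raised olfactory bulb markers, and without the 9 such arrays 2 Hdac4HET and 9 Dble::R6/2 mice were left. Of 13 bulb markers, 11 were called lower in Dble::R6/2 than in Hdac4HET mice, with a median of -1.11, and the mean marker level ranged from 5.91 to 8.29 in Hdac4HET and from 5.87 to 6.88 in Dble::R6/2 mice. General neuronal markers were lower for 7 of 8 genes (median -0.15), inhibitory neuron markers for 6 of 6 (-0.43), astrocyte markers for 5 of 6 (-0.26) and striatal markers for 4 of 4 (-1.11) in the same comparison. Over the array 15.6% of probe sets were called lower there. The mean level of the striatal markers ranged from 8.85 to 9.48 in Hdac4HET and from 7.90 to 8.52 in Dble::R6/2 mice, and the part of these markers in the subunit changes was not tested. On the arrays without raised bulb markers 6 of the 9 calls were kept, those of Gria2 1453098_at (-0.34), Gria3 1434728_at (-0.29) and 1420563_at (-0.64), Gria4 1435722_at (-0.31), Grin2b 1457003_at (-0.48) and Grin2c (-0.41). The calls of Gria1 1448972_at (-0.13, adjusted p = 0.517), Gria2 1421970_a_at (-0.08, adjusted p = 0.202) and Gria4 1421351_at (-0.37, adjusted p = 0.071) were lost. Without the 9 arrays, 15 of the 21 probe sets were called in R6/2 against WT, as with them.

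The comparisons of reduced with intact Hdac4, which use the same mice again, passed the threshold for none of the 21 probe sets. In Hdac4HET against WT mice 0 of 21 were called, where 1.43% of the array was, and the changes ran from -0.15 (Grin2b 1431700_at) to 0.08 (Grin2c). At an unadjusted p under 0.05 limma gave 2, Grin2b 1431700_at (adjusted p = 0.269) and Grin2d 1442328_at (-0.12, adjusted p = 0.16). The methods' t-test gave 0 after adjustment. Raised olfactory bulb markers touch 7 of the Hdac4HET arrays, and 12 of 13 bulb markers were called higher in Hdac4HET than in WT mice. Without the arrays of raised bulb markers the changes ran from -0.28 (Grin3a 1436575_at) to 0.16 (Grin2b 1457003_at), with 0 of 21 called. Only 2 Hdac4HET mice were left there, so these values are imprecise. In Dble::R6/2 against R6/2 mice 0 of 21 were called, where 1.99% of the array was, and 4 had an unadjusted p under 0.05. These were Gria2 1421970_a_at (-0.07 ± 0.02, adjusted p = 0.1), Gria2 1434146_at (-0.10 ± 0.04, adjusted p = 0.213), Gria3 1420563_at (-0.20 ± 0.09, adjusted p = 0.272) and Gria4 1440891_at (-0.14 ± 0.06, adjusted p = 0.171). A p that misses the threshold does not show equal levels. The 95% confidence interval ran from -0.16 to 0.08 for Gria1 1448972_at, from -0.11 to 0.06 for Gria3 1434728_at and from -0.01 to 0.17 for Grin2c. Without Dble::R6/2 replicate 7, Gria2 1421970_a_at was called lower in Dble::R6/2 than in R6/2 mice (-0.08, adjusted p = 0.0457).

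**Figure D3:**
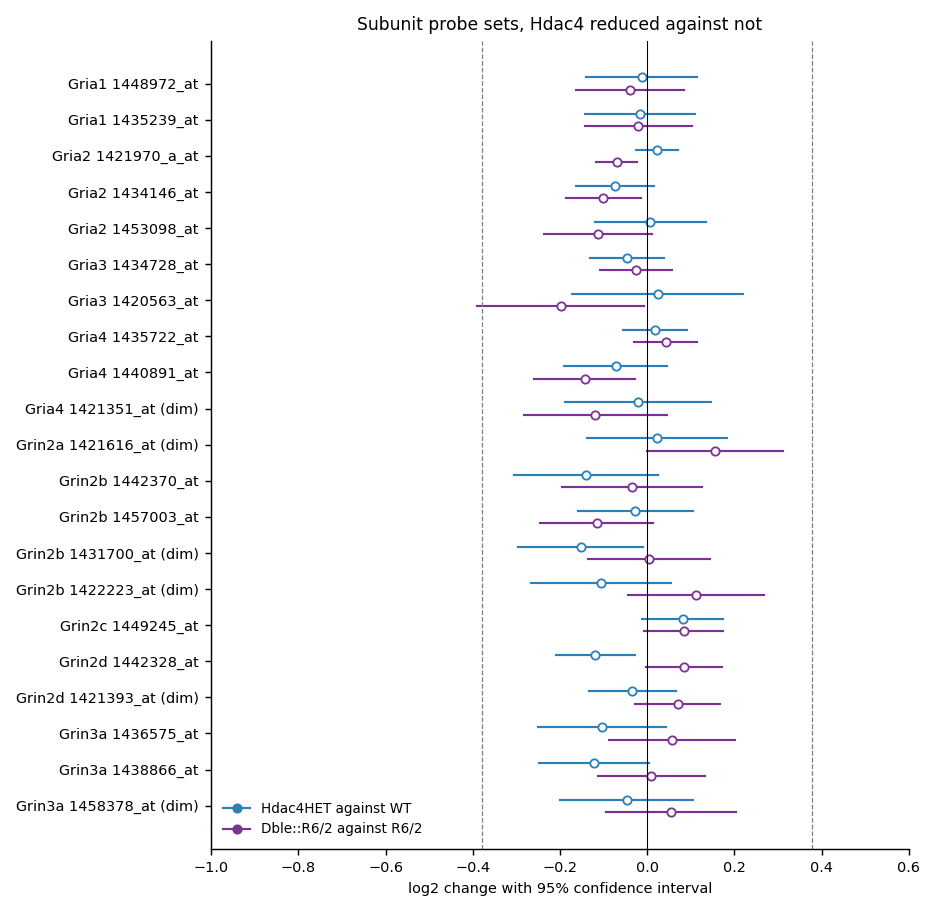
Log2 change of the 21 subunit probe sets with 95% confidence intervals (horizontal axis) for the comparisons of reduced with intact Hdac4, Hdac4HET against WT and Dble::R6/2 against R6/2. Open points did not pass an adjusted p of 0.05, dashed lines mark a change of 1.3-fold, and all 21 points of both comparisons are open.

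The interaction asks whether the transgene changed a subunit by a different amount when Hdac4 was reduced, and it uses all 4 genotypes. It was called for 0 of 21 probe sets, where 0.968% of the array was called, and 2 had an unadjusted p under 0.05. Grin2d 1442328_at had a difference of 0.20 ± 0.06 (adjusted p = 0.0772), from -0.15 in R6/2 against WT to 0.05 in Dble::R6/2 against Hdac4HET. Its median was 7.05 in WT, 6.97 in Hdac4HET, 6.91 in R6/2 and 7.01 in Dble::R6/2 mice, with overlap of all groups. It was called after quantile normalization (0.25, adjusted p = 0.0484) and without Dble::R6/2 replicate 6 (0.22, adjusted p = 0.0433). In 36 of the 37 fits without 1 mouse and 7 of the 8 other alternatives no subunit probe set was called. Of the Hdac4HET arrays that the interaction uses, 7 have raised bulb markers. Gria2 1421970_a_at had a difference of -0.09 ± 0.03 (adjusted p = 0.129).

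Changes of different subunits were set against each other within each mouse, so that a shift common to the array drops out. The brightest Gria3 probe set fell more than that of Gria2. The log2 difference of Gria3 and Gria2 lay between -0.99 and -0.61 in WT and between -1.22 and -1.01 in R6/2 mice, and the groups did not overlap. The mean difference of changes was -0.32 (exact two-sided permutation p = 4.11e-05, the smallest that 9 against 9 mice can give, adjusted p = 0.00013 over 6 tests). In Dble::R6/2 against Hdac4HET mice it was -0.21 (exact permutation p = 4.33e-05, adjusted p = 0.00013), with ranges of -1.19 to -0.98 and -1.0 to -0.83. Both kept their call in all alternatives run, none of which used the Gria2 probe set 1453098_at alone. That probe set fell by 0.25 in R6/2 against WT, where the brightest of Gria3 fell by 0.35. In Dble::R6/2 against Hdac4HET mice it fell by 0.37 and the brightest of Gria3 by 0.33. The Gria2 probe set 1434146_at changed by -0.01 and -0.04 in the respective comparisons. The lesser fall of Gria2 was therefore seen on its brightest probe set, on 1434146_at and on the mean of its probe sets. In Dble::R6/2 against Hdac4HET mice it was not seen on 1453098_at. Neither 1434146_at alone nor 1453098_at alone was tested against Gria3.

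Gria1 also fell more than Gria2 by brightest probe sets, by -0.24 in R6/2 against WT (exact permutation p = 0.00465, adjusted p = 0.00697) and by -0.18 in Dble::R6/2 against Hdac4HET mice (exact permutation p = 0.00283, adjusted p = 0.00565). With the mean of all probe sets above the genes not expected in cortex these became -0.080 (adjusted p = 0.491) and -0.016 (adjusted p = 0.75), and neither passed. By brightest probe sets and without the arrays of raised bulb markers, the first kept its call and the second was -0.042 (exact permutation, adjusted p = 0.785). The dim Grin2a and the bright Grin2b did not differ past the threshold, at -0.01 and 0.02 (both adjusted p = 0.943).

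**Figure D4:**
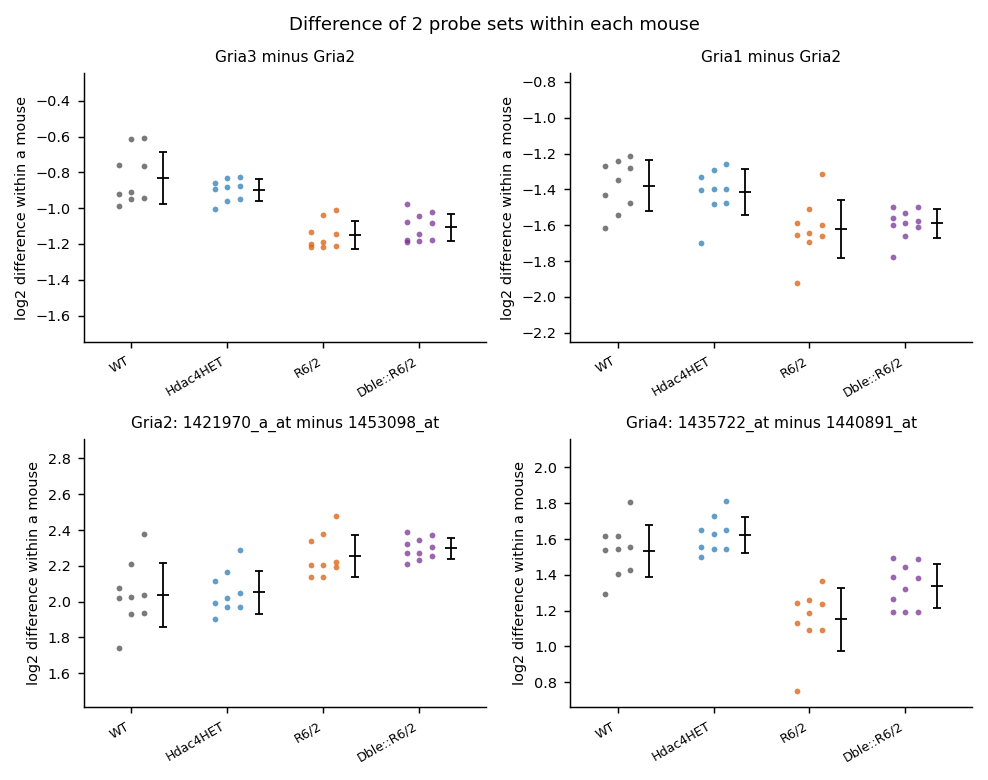
Log2 difference of 2 probe sets within each mouse (vertical axes, each spanning 1.5 log2 units) by genotype. Points are mice and bars the mean ± SD, and the panels show Gria3 minus Gria2 and Gria1 minus Gria2 by brightest probe sets, and pairs of probe sets of Gria2 and of Gria4. The Gria4 difference had means of 1.53 in WT and 1.15 in R6/2 mice.

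Probe sets of the same gene also changed unequally, which was examined after the values had been seen. For Gria4, 1435722_at minus 1440891_at lay between 1.29 and 1.81 in WT and between 0.75 and 1.37 in R6/2 mice. The difference of changes was -0.38 (exact permutation p = 8.23e-05, adjusted p = 0.000455 over 14 tests), and -0.29 in Dble::R6/2 against Hdac4HET mice (exact permutation p = 4.33e-05, adjusted p = 0.000455), where the groups did not overlap. For Gria2, 1421970_a_at against 1453098_at gave 0.22 (adjusted p = 0.0156, exact permutation) and 0.24 (adjusted p = 0.000455, exact permutation). The Gria1 pair gave -0.19 (adjusted p = 0.0142, exact permutation) and -0.21 (adjusted p = 0.00201, exact permutation). The Gria3 pair gave 0.16 (adjusted p = 0.0852, exact permutation) and 0.40 (adjusted p = 0.003, exact permutation). The pairs of Grin2b and Grin3a and the other Gria2 pair did not pass. Without the arrays of raised bulb markers the Gria4 pair kept its call in R6/2 against WT mice (-0.39, exact permutation, adjusted p = 0.0023). In the same comparison the Gria1 pair (-0.17) and the Gria2 pair (0.20) no longer passed, both with an adjusted p of 0.0509 by exact permutation. In Dble::R6/2 against Hdac4HET mice, where the 2 Hdac4HET mice left allow no exact p below 0.0182, the 4 pairs that had passed had adjusted p from 0.0509 to 0.28. The sources used here do not place these probe sets on the transcripts, so no isoform is named.

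Genes of the proteins that accompany AMPA receptors were mostly lower in R6/2 cortex. Of the 16 auxiliary subunits measured, limma called 11 lower and 1 higher as compared to WT, 4 did not pass, and the median change was -0.19, against 17.6% called lower and 21.3% higher over the array and a median of -0.02. Gsg1l, an auxiliary subunit that slows recovery of the receptor, fell by 0.87 ± 0.05 (adjusted p = 2.06e-16), and Cacng3, a stargazin relative that brings receptors to the surface, by 0.63 ± 0.05 (adjusted p = 7.12e-14). They were the 2 of the 16 past 1.3-fold, where 6.08% of the array was. In Dble::R6/2 against Hdac4HET cortex 9 of the 16 were lower and 1 higher, where 15.6% and 21.2% of the array were. There Gsg1l fell by 0.87 ± 0.05 (limma, adjusted p = 1.11e-16) and Cacng3 by 0.45 ± 0.05 (adjusted p = 2.43e-10). Raised bulb markers touch 7 of the Hdac4HET arrays, and values of this and the following lists without the arrays of raised bulb markers are not given. In Hdac4HET against WT mice 1 of the 16 was called higher and 0 lower, where 1.43% of the array was called.

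Of 10 anchoring and clustering genes measured, 3 were lower and 1 was higher in R6/2 against WT, a share close to the 38.8% called over the array, and their median of -0.02 equals that of all probe sets. The gene past 1.3-fold was Nptx2, a secreted pentraxin that gathers AMPA receptors at synapses onto interneurons, which fell by 1.01 ± 0.09 (adjusted p = 6.13e-12) and, in Dble::R6/2 against Hdac4HET mice, by 1.17 ± 0.09 (adjusted p = 7.01e-14). Of the 10 genes, 1 was called higher in Hdac4HET than in WT mice and 0 lower. In R6/2 against WT the kainate, delta and GluN3B list had 4 of 9 called lower and 0 higher (median -0.15). Of the array 38.8% was called, 17.6% lower and 21.3% higher. Among the 4 was the kainate receptor subunit Grik1, which fell by 0.42 ± 0.08 (limma, adjusted p = 5.56e-05).

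The list of co-agonist supply and NMDA receptor regulators had 5 of 8 lower and 1 higher (median -0.15), where 17.6% and 21.3% of the array were. Slc7a10, an exchanger of D-serine and glycine, fell by 0.49 ± 0.05 (adjusted p = 9.86e-10). Of the 3 RNA editing enzymes, Adarb2, for which no editing activity is known, fell by 0.38 ± 0.11 (adjusted p = 0.00655) and passed 1.3-fold. Adarb1, which edits the Gria2 transcript, fell by 0.31 ± 0.04 (adjusted p = 8.36e-09) and, in Dble::R6/2 against Hdac4HET mice, by 0.43 ± 0.04 (adjusted p = 2.78e-12). In Hdac4HET against WT mice 1 of the 3 editing enzymes was called higher and 0 lower, with a median change of 0.15. The part of the raised bulb markers in these values was not tested. The arrays measure the amount of a transcript and not its editing.

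**Figure D5:**
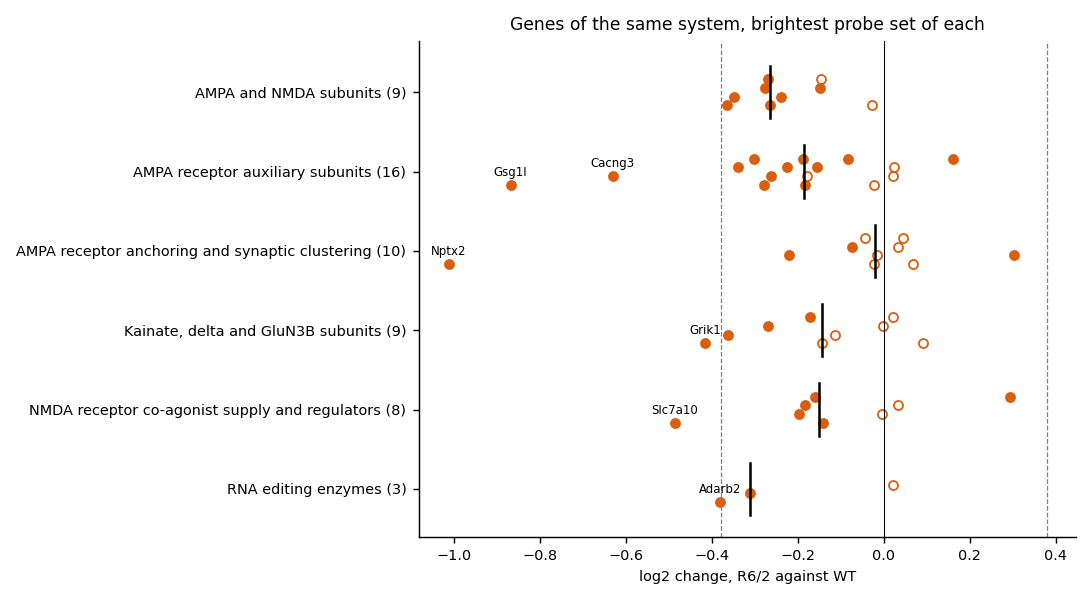
Log2 change in R6/2 against WT cortex (horizontal axis) of the brightest probe set of each gene in the subunit set and in 5 lists of related genes, with the number of genes measured in brackets. Filled points passed an adjusted p of 0.05, vertical bars are medians, dashed lines mark a change of 1.3-fold, and genes past it are named, with Nptx2 (-1.01) and Gsg1l (-0.87) lowest.

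The genes most like Grin2c, the subunit with the largest change by brightest probe set, were found by correlating deviations from the genotype means over 37 arrays. Over 18184 genes the highest Pearson correlations were those of Pmm1 (0.63), Nav1 (0.62), Ccdc107 (0.62), Adgrb1 (0.62) and Atp6v1c2 (0.60). These values come from the same arrays and share their hybridisation and tissue piece. Of the 5 genes, Pmm1, Adgrb1 and Atp6v1c2 were called lower in R6/2 cortex, and Nav1 and Ccdc107 were not called.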

How the data were processed

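Cortex RNA of 37 mice was hybridised to Affymetrix Mouse Genome arrays, 1 array per mouse. The authors deposited log2 levels, 1 column per array. Per the methods, arrays were checked with RACE and poor ones left out of the tests, which count fewer arrays in some genotypes than the 37 used here. Which arrays those were is not stated, so poor arrays may be among the 37. The summary and normalization of the probes were not given in the sources used here. Values were used as deposited, and the number of arrays limits the precision. Genotype came from the sample titles. Genes were named from the platform annotation, with symbols updated by gene identifier. Of the probe sets 34945 had 1 symbol, 932 several and 9160 none.

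All genotypes were fitted in 1 model with limma 3.58.1 in R 4.3.3 (lmFit, eBayes with a trend), and p-values were adjusted by Benjamini-Hochberg over all 45037 probe sets. A probe set was called at an adjusted p under 0.05, and changes above 1.3-fold were counted separately. Unequal changes were tested on within-mouse differences by exact two-sided permutation over mice (Python 3.11.15), with adjustment within each family of tests. The brightest probe set of a gene has the highest mean over all arrays. Every subunit was described. From each list of related genes those past both thresholds, at most 4, were named, and Adarb1 was added after its value was seen. The members and lists were chosen with earlier results of these data known. Both tests were checked on simulated data. Alternatives were quantile normalization, array quality weights, eBayes without a trend, the methods' t-test, a model of the compared genotypes alone, a sex term, a replicate block, a restriction to probe sets brighter than the median, the mean of a gene's probe sets, and fits without arrays of raised bulb markers, without arrays whose sex-linked genes contradict the label, and without each mouse in turn. P-values set a difference between groups against the spread between these mice.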

Additional observations from a re-analysis of the deposited data

Results flagged for a closer look

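In each genotype the highest and the lowest mouse were compared with the rest of the group on every subunit probe set. Of 84 groups, 9 held a mouse whose gap to its nearest neighbour was too large a share of the group's range for Dixon's test, where chance marks about 1 group in 20. The cause was not tested in any of them.

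Among the AMPA subunits, Hdac4HET replicate 8 stood lowest on Gria1 1448972_at at a log2 level of 10.85. On Gria3 1420563_at, WT replicate 8 stood lowest at 10.66 and Hdac4HET replicate 1 lowest at 10.93, the latter an array with raised bulb markers and sex-linked genes against its label. Hdac4HET replicate 3 stood lowest on Gria4 1440891_at at 8.31.

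Among the NMDA subunits, WT replicate 4 stood highest on Grin2b 1457003_at at 10.57 and on the dim Grin2b 1422223_at at 5.56. The dim Grin2d 1421393_at held 2 such mice, Hdac4HET replicate 3 at 5.93 and Dble::R6/2 replicate 6 at 5.45. R6/2 replicate 8 stood lowest on Grin3a 1438866_at at 7.22.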

How the results depend on the processing

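Of 21 probe sets, 15 were called in R6/2 against WT, 13 to 16 without any 1 mouse and 11 to 15 under the other alternatives. In Dble::R6/2 against Hdac4HET 9 were called, 9 to 10 without any 1 mouse and 6 to 9 otherwise, with 6 when arrays of raised bulb markers were left out. The 2 probe sets past both thresholds in R6/2 against WT became 1 to 3 without 1 mouse, with 1 without WT replicate 7, where Gria4 1421351_at changed by -0.37, and the 2 in Dble::R6/2 against Hdac4HET became 2 to 3. The counts were 1 in each comparison over probe sets above the median level, since Gria4 1421351_at was not tested there. The count of 0 held in Hdac4HET against WT under every alternative run, while without 1 mouse it was 0 to 1 in Dble::R6/2 against R6/2 and 0 to 1 in the interaction, where it was 1 after quantile normalization and 1 without Dble::R6/2 replicate 6 (Grin2d 1442328_at). Pairs of probe sets of the same gene that lost their call are given above. Between genes, Gria1 against Gria2 was the difference that lost its call. By exact permutation on the mean of the probe sets it was -0.080 (adjusted p = 0.491) in R6/2 against WT and -0.016 (adjusted p = 0.75) in Dble::R6/2 against Hdac4HET. In the latter it was -0.042 (adjusted p = 0.785) by exact permutation without arrays of raised bulb markers. The cause was not tested. Without 1 mouse these differences ranged from -0.28 to -0.20 and from -0.21 to -0.16, and those of Gria3 against Gria2 from -0.34 to -0.29 and from -0.22 to -0.20. No alternative turned a called change around.

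The replicate numbers did not pair the mice. The 54 pairs of the same number had correlations of deviations from -0.27 to 0.22, with a median of 0.00881, and 3 arrays correlated best with their own number. With the replicate number as a block 15 probe sets were called in R6/2 against WT, 9 in Dble::R6/2 against Hdac4HET and 0 in the other comparisons, as without it. The planned comparison of Grin1 with Grin2b and the search for genes like Grin1 were not run. Dim probe sets, among them the only one of Grin2a, lie at the level of genes not expected in cortex, which limits what their changes show.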

Other observations

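Subunits were also set against each other within genotypes, as correlations of deviations from the genotype means over 37 arrays, which share their normalization and tissue piece and carry no test. Between different subunits the highest were those of Gria1 1435239_at with Grin3a 1438866_at (0.84) and with Grin3a 1436575_at (0.81). Gria2 1434146_at and Gria3 1434728_at came next with 0.71, and Gria2 1453098_at and Gria3 1420563_at had 0.70. The pair of Gria1 had a correlation of 0.61. Set against mean marker levels, the brightest probe set of Gria1 had a correlation of -0.58 with the general neuronal markers. That of Grin3a had one of -0.55 with the excitatory neuron markers. The highest positive values were those of Grin3a with the cerebellum markers (0.51) and of Grin2c with the oligodendrocyte precursor markers (0.50). Grin2b had 0.48 with the excitatory neuron markers, and Grin3a 0.43 with the olfactory bulb markers.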
